A study of Homo sapiens with 16 samples.

Results

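SGK1 and 7 genes around it were followed through 16 RNA libraries of SH-SY5Y, a human neuroblastoma cell line that takes on a neuron-like form in retinoic acid and brain-derived neurotrophic factor (BDNF). The set is the kinases SGK1 and SGK3, the glucocorticoid receptor NR3C1, and FKBP5, TSC22D3, PER1, KLF9 and ZBTB16, which glucocorticoids induce in many cell types. These 8 genes were looked up by symbol among 69222 gene rows, and all 8 had a row. The set was chosen by the level of SGK1 in these same libraries, where its counts were higher on conductive films than on differentiated plates, so the members' film-against-plate values are given below as a description with no test.

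Polyadenylated RNA was sequenced from 8 groups of 2 libraries. Cells were differentiated on 1 of 3 electrically conductive films with electrical stimulation (ES), on the same films without it, or on culture plates, and a last group of untreated cells grew on plates. The films were P(rGO), a nanocomposite that holds reduced graphene oxide, a conducting blend named PEDOT:PSS, and indium tin oxide (ITO), each coated with poly-L-lysine and laminin; the labels name no coat for plates. Differentiation lowered serum in 3 steps, to 5%, then 2.5%, then 1% (days 2, 3 and 5), gave 10 µM retinoic acid from day 3 to day 6, and ended with 4 days of 50 ng/mL BDNF. Stimulation was a square wave of 0.1 V peak to peak at 1 Hz for 8 h on each of those last 4 days. The labels name no glucocorticoid among the additions, and they do not give the serum of the untreated cells. The labels do not say whether replicates are separate cultures, and p-values therefore cover only library-to-library spread, possibly technical.

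On GRCh38, by the GENCODE 29 annotation, SGK1 spans chr6:134169246-134318112, FKBP5 chr6:35573585-35728583, PER1 chr17:8140472-8156506, KLF9 chr9:70384597-70414624, NR3C1 chr5:143277931-143435512 and TSC22D3 chrX:107713221-107777342, all on the minus strand. SGK3 spans chr8:66667596-66862022 and ZBTB16 chr11:114059593-114250676 on the plus strand. Counts are over the exons of each gene.

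SGK1 is a serine/threonine kinase whose transcript rises within a short time after serum, glucocorticoids, mineralocorticoids or a change in cell volume. PI3-kinase signalling activates the protein through PDPK1 and mTORC2, and it then regulates ion channels, FOXO factors and the ubiquitin ligase NEDD4L. The glucocorticoid receptor waits in the cytosol with HSP90 and its co-chaperones, moves to the nucleus when it binds hormone, and binds DNA at paired copies of a site like AGAACA. FKBP5 is among its best known targets and feeds back on it by lowering its affinity for hormone.

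Gene counts summed to 15600410 in the shallowest library and 20851000 in the deepest, and levels are CPM, counts scaled to a common library size. Untreated replicates stood furthest apart, with a biological coefficient of variation of 36.2%, against 18.1% for differentiated plates and 6.88% to 18.2% for film groups. Of 13 adrenergic neuroblastoma markers, 10 were above 1 CPM in every library and 1 was at 0 throughout. Fibroblast markers summed to 407 to 643 CPM in the 14 differentiated libraries and 1260 to 1697 CPM in untreated cells. Schwann and glial markers summed to 3.90 to 12.8 CPM, and leukocyte, endothelial and epithelial markers to 0.458 to 2.72 CPM. These are bulk libraries, so fewer cells with a transcript and less transcript per cell cannot be told apart.

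Promoter letters are shown for 3 members, SGK1, FKBP5 and KLF9. SGK1 was highest on films, whereas FKBP5 and KLF9 were both highest in untreated cells. RefSeq windows were at hand for 6 of the 8 members, 18 windows in all on GRCh38.p14, and those printed lie upstream of the most downstream start of each gene, on the minus strand, without bases that another transcript annotates as exon. Coordinates are chr6:134174897-134175116 for SGK1, chr6:35688943-35689165 for FKBP5 and chr9:70414658-70414907 for KLF9. Capitals mark GC boxes (GGGCGG), E-boxes (CACGTG) and CCAAT boxes, searched on both strands. Each is written 5′ to 3′ on the gene's strand:
SGK1: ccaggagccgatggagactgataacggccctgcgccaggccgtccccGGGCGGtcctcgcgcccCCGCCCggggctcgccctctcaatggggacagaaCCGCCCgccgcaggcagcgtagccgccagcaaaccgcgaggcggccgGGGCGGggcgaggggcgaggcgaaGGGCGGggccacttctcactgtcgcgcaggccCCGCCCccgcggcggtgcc
FKBP5: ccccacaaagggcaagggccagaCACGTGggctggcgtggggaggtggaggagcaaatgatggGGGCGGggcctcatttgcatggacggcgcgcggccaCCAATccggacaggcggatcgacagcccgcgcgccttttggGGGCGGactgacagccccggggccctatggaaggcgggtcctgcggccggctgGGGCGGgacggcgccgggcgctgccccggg
KLF9: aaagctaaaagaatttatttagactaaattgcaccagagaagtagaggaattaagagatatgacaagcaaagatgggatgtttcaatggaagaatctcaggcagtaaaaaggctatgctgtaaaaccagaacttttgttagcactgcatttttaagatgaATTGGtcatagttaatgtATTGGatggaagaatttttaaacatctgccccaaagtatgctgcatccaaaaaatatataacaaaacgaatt

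The SGK1 stretch held 6 GC boxes, the FKBP5 stretch 3 with 1 E-box and 1 CCAAT box, and the KLF9 stretch neither of these but 2 CCAAT boxes read on the other strand. None of the 3 windows held AGAACA, which 12.4% of 35116 promoter windows of 250 bases hold on either strand. GC boxes were in 42.6% of those windows, E-boxes in 6.34% and CCAAT in 32% of them. A match describes letters and no more, and receptor sites outside these windows were not searched.

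SGK1 ran from 6.41 to 162 CPM over the 16 libraries. It was 44.9 and 39.7 CPM on stimulated P(rGO) films, 96.3 and 78.7 CPM on stimulated PEDOT:PSS and 78.2 and 138 CPM on stimulated ITO. Without stimulation it was 103 and 87.9 CPM on P(rGO), 116 and 87.7 CPM on PEDOT:PSS and 125 and 162 CPM on ITO. Differentiated plates had 6.41 and 15.8 CPM, and untreated plates 19.5 and 19.2 CPM. Every one of the 12 film libraries was above every one of the 4 plate libraries, and the stimulated P(rGO) pair was the lowest on any film. The share of all genes that separate film from plate libraries completely is not given here, for SGK1 or for NR3C1 below. The order of means ran ITO (143 CPM), stimulated ITO (108), PEDOT:PSS (102), P(rGO) (95.4), stimulated PEDOT:PSS (87.5), stimulated P(rGO) (42.3), untreated (19.4) and differentiated plates (11.1). Replicate values overlapped between each neighbouring pair of the first 5 groups in that order.

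**Figure D1:**
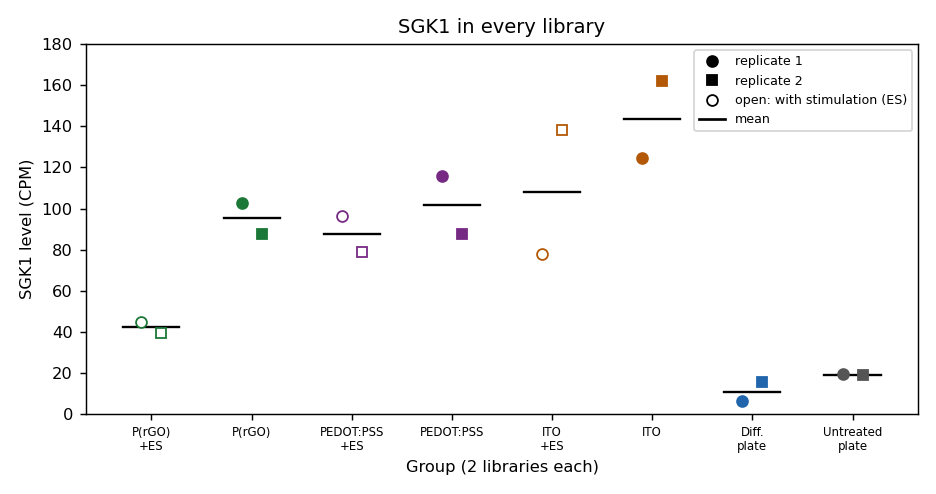
SGK1 level in CPM (linear axis from 0) in each of 16 libraries, by group; circles are replicate 1, squares replicate 2, open symbols had electrical stimulation and black lines are means of 2. All film libraries lie at 39.7 CPM or above and all plate libraries at 19.5 CPM or below.

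Against differentiated plates, the comparison behind the choice of SGK1, log2 fold changes of SGK1 were 3.10 (SE 0.35) on P(rGO), 3.19 (SE 0.35) on PEDOT:PSS and 3.68 (SE 0.36) on ITO. With stimulation they were 1.92 (SE 0.34), 2.97 (SE 0.35) and 3.28 (SE 0.35) against the same plates. These sizes move with the plate library used. Without differentiated plate replicate 1, which had the lower SGK1 and 8.58% mitochondrial reads against 5.42% in replicate 2, the unstimulated values were 2.59, 2.68 and 3.18. Without replicate 2 they were 3.90, 4.00 and 4.50.

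Untreated cells had no part in that choice, whereas the film libraries and the differentiated plate libraries did. This biases SGK1's tests of films and of differentiated plates against untreated cells toward passing. Their p-values and calls are thus no independent support for a change in SGK1. Stimulated films had log2 fold changes against untreated cells of 1.13 (SE 0.33) on P(rGO), 2.18 (SE 0.33) on PEDOT:PSS and 2.48 (SE 0.34) on ITO. Adjusted p-values from edgeR's quasi-likelihood test were 0.016, 0.00036 and 0.00022, so SGK1 was called higher on all 3 stimulated films than in untreated cells. The P(rGO) call was lost, at an adjusted p of 0.073 to 0.087, without either untreated library or without stimulated P(rGO) replicate 1. These 3 comparisons were added after earlier results were known. On unstimulated films SGK1 was higher by 2.30 (SE 0.34), 2.39 (SE 0.34) and 2.89 (SE 0.34) than in untreated cells, with adjusted p = 0.00022, 0.00024 and 6.9e-05. On differentiated plates SGK1 had a log2 fold change of -0.79 (SE 0.34) against untreated plates, and this did not pass (adjusted p = 0.092). Without differentiated plate replicate 2 it was -1.60 and passed (adjusted p = 0.015), and without the filter on low counts it was -0.78 and passed (adjusted p = 0.00076).

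The next comparison asks whether stimulation changed SGK1 on a film. Film libraries had a part in the choice of SGK1, so its p-values and intervals here are to be read with that in view. Stimulated P(rGO) libraries were both below unstimulated P(rGO) libraries, at 42.3 ± 3.7 CPM against 95.4 ± 11 CPM (SD, n = 2). The share of all genes that separate stimulated from unstimulated libraries completely is not given here, for SGK1 or for RGS2 below. The log2 fold change was -1.17 (SE 0.32, 95% interval -1.86 to -0.49), with an unadjusted p from edgeR of 0.0026 and an adjusted p of 0.73. On PEDOT:PSS it was -0.22 (95% interval -0.89 to 0.46) and on ITO -0.41 (95% interval -1.08 to 0.26), with overlapping replicates in both. The mean over the 3 films was -0.60 (SE 0.18; edgeR unadjusted p = 0.0054, adjusted p = 0.80). The change with stimulation on PEDOT:PSS exceeded that on P(rGO) by 0.96 (SE 0.45, 95% interval -0.00 to 1.91) and that on ITO exceeded it by 0.77 (SE 0.45, 95% interval -0.19 to 1.72), and neither difference passed (edgeR adjusted p = 1). The stimulated P(rGO) libraries also had the highest share of reads outside genes, 8.95% to 10.0% against 7.28% to 7.80% on unstimulated P(rGO), and its part in the SGK1 value was not tested.

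Among stimulated films, SGK1 was 1.35 (SE 0.32) higher on ITO than on P(rGO) on the log2 scale, at an edgeR adjusted p of 0.79 that DESeq2 puts at 0.042. PEDOT:PSS stood 1.05 (SE 0.32) above P(rGO), with an edgeR adjusted p of 1.00. Without the filter on low counts, edgeR called SGK1 in both of these and also for stimulation on P(rGO) (adjusted p = 3.3e-07) and over the 3 films (2.1e-05). The log2 fold changes for stimulation hardly moved, at -1.18 on P(rGO) and -0.60 over the films, so these calls rest on the filter setting. The share of all genes called without the filter is not given here. No member passed in any of the 7 stimulation comparisons or 6 film-against-film comparisons, where edgeR called 0 of 18081 genes (0% called). At an edgeR unadjusted p under 0.05 there were 986 genes (5.45%) for P(rGO) and 1021 (5.65%) for the mean effect. Those shares are near what a cut of 0.05 gives with no change in any gene. PEDOT:PSS had 126 (0.697%) and ITO 293 (1.62%), which is below it. DESeq2 called 12, 0, 0 and 2 for P(rGO), PEDOT:PSS, ITO and the mean effect. Between films the unadjusted counts ran from 237 (1.31%) to 636 (3.52%), and DESeq2 called 0 to 26 genes. Between the stimulation changes of 2 films they ran from 128 (0.708%) to 252 (1.39%), and DESeq2 called 0.

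SGK3, a paralog that acts on endosomes, had counts close to the detection limit. It had 4 to 14 reads per library, 0.255 to 0.752 CPM, of which differentiated plates held 0.699 and 0.706 CPM. It passed no test, with log2 fold changes against untreated cells of -0.38 to 0.74. Its gene on chromosome 8 shares 6.04% of its exon length with C8orf44, so its counts are uncertain. A joint gene row, C8orf44-SGK3, was counted as well, with 0 to 3 reads per library. Reads that fit both rows may be missing from SGK3, which would lower its counts and its level per kilobase. Per kilobase of exon, SGK1 exceeded SGK3 in every group, with 10.2 against 0.0490 CPM per kb on PEDOT:PSS films and 1.94 against 0.0645 CPM per kb in untreated cells.

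NR3C1, the glucocorticoid receptor itself, was lowest on films. Stimulated films had 5.39 to 8.02 CPM (median 5.67), unstimulated films 4.05 to 7.75 (median 6.07), differentiated plates 14.6 and 11.1, and untreated plates 8.28 and 13.1. All 12 film libraries were below all 4 plate libraries, the reverse of SGK1. The gap was narrow, at 8.02 CPM (171 reads) in stimulated ITO replicate 1 against 8.28 CPM (140 reads) in untreated replicate 1. Against differentiated plates, a contrast given here with no test, log2 fold changes were -1.46 (SE 0.30) on P(rGO), -0.90 (SE 0.29) on PEDOT:PSS and -1.05 (SE 0.30) on ITO, and -1.13, -1.23 and -0.90 with stimulation. Against untreated cells NR3C1 fell on P(rGO) by 1.19 (SE 0.30, edgeR adjusted p = 0.0077), and on the stimulated P(rGO) and PEDOT:PSS films by 0.87 (adjusted p = 0.034) and 0.97 (adjusted p = 0.022). It missed the threshold on PEDOT:PSS (-0.63, adjusted p = 0.12), ITO (-0.79, 0.053) and stimulated ITO (-0.64, 0.11), and on differentiated plates it was 0.26 (SE 0.29). These calls depend on single libraries. Without untreated replicate 2 the values were -0.83 on P(rGO), -0.49 on stimulated P(rGO) and -0.60 on stimulated PEDOT:PSS, with adjusted p = 0.054, 0.23 and 0.16. They were also lost without P(rGO) replicate 2 (0.086), without either stimulated P(rGO) library (0.14 and 0.097) and without either stimulated PEDOT:PSS library (0.11 and 0.10). Without untreated replicate 1 all 6 film values passed. With only the groups compared in the fit, the 3 calls had adjusted p = 0.099 to 0.20, and DESeq2 called the fall on ITO as well (adjusted p = 0.039).

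FKBP5, the co-chaperone that restrains the receptor, was highest in untreated cells. It had 7.44 to 18.0 CPM on stimulated films (median 13.3), 10.3 to 18.9 CPM on unstimulated films (median 15.7), 16.3 and 8.74 CPM on differentiated plates, and 48.5 and 26.2 CPM in untreated cells. Each of the 14 differentiated libraries lay below both untreated ones. The share of all genes that separate untreated from differentiated libraries completely is not given here, for FKBP5 or for TSC22D3 and KLF9 below. FKBP5 fell in every differentiated group in the fit over all libraries. Its log2 fold change against untreated cells was -1.58 (SE 0.35; edgeR adjusted p = 0.0053) on differentiated plates, and -1.23 on P(rGO), -1.07 on the PEDOT:PSS film and -1.60 on ITO (adjusted p = 0.014, 0.031 and 0.0038). On stimulated films it was -1.87, -1.54 and -1.18 (adjusted p = 0.0013, 0.0046 and 0.019). Against differentiated plates the film values ran from -0.29 to 0.51, with no test. Their sign depended on the plate library, since without differentiated plate replicate 1 all 6 were positive (0.22 to 1.03), and without replicate 2 they ran from -0.65 to 0.14, with 4 of them negative. Untreated replicate 1 was the higher one, and without it FKBP5 on P(rGO), PEDOT:PSS and stimulated ITO was -0.73, -0.56 and -0.67, none of which passed (adjusted p = 0.11, 0.22 and 0.14). Without differentiated plate replicate 2 the value on plates was -1.21 and did not pass either (adjusted p = 0.075). The calls on P(rGO), PEDOT:PSS, ITO and stimulated ITO were likewise lost without 1 of their own libraries, at adjusted p = 0.14 without P(rGO) replicate 2, 0.10 and 0.17 without either PEDOT:PSS library, 0.052 without ITO replicate 2, and 0.064 and 0.12 without either stimulated ITO library. With only the groups compared in the fit, FKBP5 passed on stimulated P(rGO) alone, and the other 6 groups had adjusted p = 0.052 to 0.13.

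TSC22D3 encodes GILZ, a leucine zipper protein that mediates anti-inflammatory effects of glucocorticoids, and it moved up where FKBP5 moved down. Levels were 46.3 to 72.4 CPM on stimulated films (median 52.9), 55.1 to 74.8 CPM on unstimulated films (median 65.0), 45.4 and 54.6 CPM on differentiated plates, and 34.7 and 24.7 CPM in untreated cells. All 14 differentiated libraries were above both untreated ones. TSC22D3 rose on differentiated plates by 0.75 (SE 0.19; edgeR adjusted p = 0.010), and on P(rGO), PEDOT:PSS and ITO by 1.32, 1.06 and 1.03 (adjusted p = 0.0002, 0.0012 and 0.0012). With stimulation the values were 1.08, 0.78 and 0.75 (adjusted p = 0.00075, 0.0067 and 0.0085). Film values against differentiated plates, with no test, were 0.57, 0.31 and 0.28 (SE 0.19 each), and with stimulation 0.33, 0.03 and -0.00. Both stimulated libraries were below both unstimulated ones on each of the 3 films. The share of all genes that separate in this way is not given here. The mean effect of stimulation was -0.27 (SE 0.11, edgeR unadjusted p = 0.027, adjusted p = 0.83) and did not pass. Without differentiated plate replicate 2 the rise on plates was 0.60 (adjusted p = 0.11), and without untreated replicate 2 it was 0.53 (adjusted p = 0.059). The call on stimulated ITO was lost without untreated replicate 2 (adjusted p = 0.051) or stimulated ITO replicate 2 (adjusted p = 0.068). TSC22D3 passed on P(rGO) alone with only the groups compared in the fit, and the other 6 groups had adjusted p = 0.0504 to 0.19.

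KLF9, a Krüppel-like repressor that also feeds into the circadian clock, had the largest contrast of the set with untreated cells. It stood at 1.74 to 4.22 CPM on stimulated films, 1.34 to 2.69 CPM on unstimulated films, 1.63 and 3.10 CPM on differentiated plates, and 14.9 and 47.7 CPM in untreated cells. The log2 fold change was -3.72 (SE 0.57; edgeR adjusted p = 0.00061) on differentiated plates and -3.75, -3.97 and -4.17 on P(rGO), PEDOT:PSS and ITO (adjusted p = 3e-04, 0.00032 and 0.00021). On stimulated films it was -3.26, -3.68 and -3.39 (adjusted p = 6e-04, 0.00037 and 0.00063). Untreated replicates differed in KLF9, yet the lower of them was above all 14 differentiated libraries, and leaving out any 1 library kept each of these calls. The call on stimulated ITO was lost with only the groups compared in the fit (adjusted p = 0.056). Film values against differentiated plates ran from -0.45 to 0.46, with SE of 0.57 to 0.60.

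PER1, a period gene of the circadian clock that glucocorticoids and cyclic AMP induce directly, was set apart by 1 library. It had 63.1 to 113 CPM on stimulated films, 66.5 to 81.2 CPM on unstimulated films, 51.0 and 68.0 CPM on differentiated plates, and 57.1 and 238 CPM in untreated cells. Apart from untreated replicate 2, the other 15 libraries lay between 51.0 and 113 CPM. The log2 fold change of differentiated plates against untreated plates was -1.31 (SE 0.44; edgeR adjusted p = 0.038), although the groups overlapped. Without untreated replicate 2 it was 0.062 (adjusted p = 0.89), and without untreated replicate 1 it was -2.01 (adjusted p = 9.7e-05). The call was also lost without either differentiated plate library (adjusted p = 0.17 and 0.11) and, at 0.050 to 0.052, without any 1 library of P(rGO), PEDOT:PSS, stimulated PEDOT:PSS or ITO, and DESeq2 on all libraries gave an adjusted p of 0.052. It was 0.25 with only the groups compared in the fit. On films PER1 did not pass against untreated cells, at -0.95, -1.09 and -0.99 without stimulation (adjusted p = 0.11, 0.072 and 0.093) and -0.73 to -1.03 with it. Without untreated replicate 1 all 6 film values passed, at -1.41 to -1.78. All 6 also passed in edgeR without the filter on low counts, at adjusted p = 5.8e-08 on PEDOT:PSS to 0.00061 on stimulated P(rGO). Yet every film library lay between the untreated values of 57.1 and 238 CPM, so these groups overlapped as well. The share of all genes called without the filter is not given here.

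ZBTB16, a zinc finger repressor and a sensitive glucocorticoid target in many tissues, was almost not seen. It had 4 reads in all, 1 each in 4 libraries, and 0 in the other 12, and it was the only member too low to test. A count of 0 allows up to 3 reads, a level of 0.141 to 0.192 CPM in these libraries, and this limit covers counting error only.

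**Figure D2:**
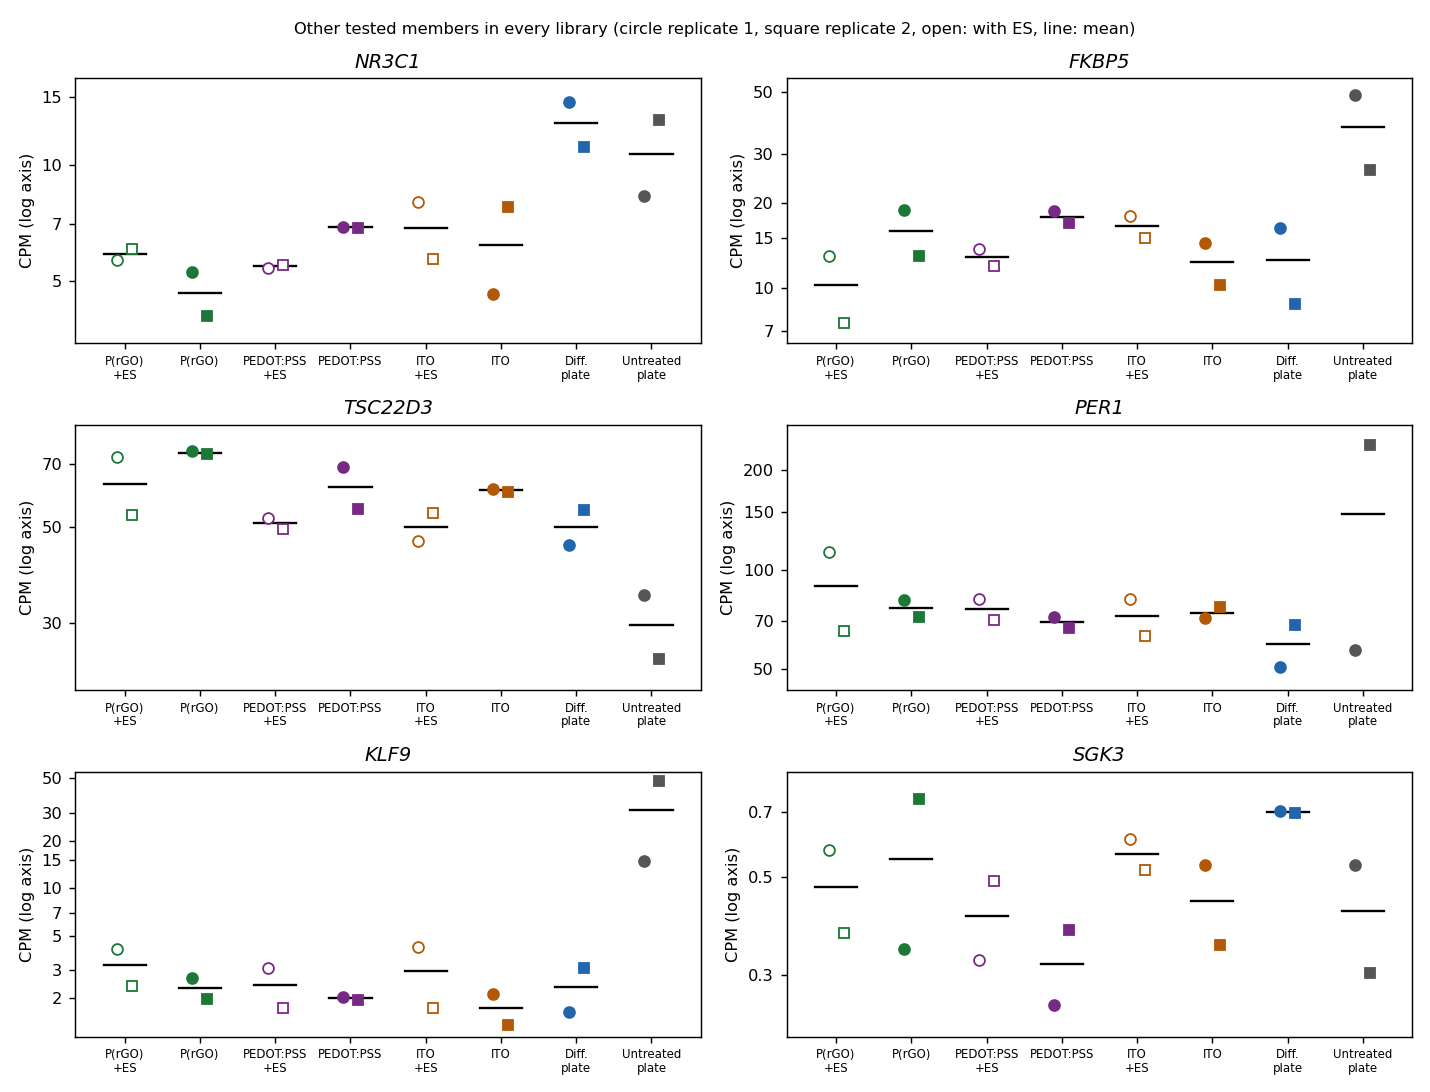
Levels of 6 other members in CPM (log axes that differ between panels) in each library, by group; circles are replicate 1, squares replicate 2, open symbols had stimulation and black lines are means of 2. Both untreated libraries lie above all others for FKBP5 and KLF9 and below all others for TSC22D3, and for PER1 only untreated replicate 2, at 238 CPM, stands apart.

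Against untreated plates, 1 of 7 tested members rose and 3 fell on differentiated plates, where 13.8% of all genes rose and 15.8% fell (29.6% called). On P(rGO) 2 rose and 3 fell, with 16.8% of all genes higher and 18.8% lower (35.6%). On PEDOT:PSS 2 rose and 2 fell (14.6% higher, 16.8% lower, 31.4% called), and ITO had 2 and 2 (16.1%, 18.8% and 35%). Stimulated P(rGO) had 2 higher and 3 lower (17.5%, 19.7% and 37.2%), stimulated PEDOT:PSS 2 and 3 (15.9%, 18.5% and 34.4%), and stimulated ITO 2 and 2 (15.2%, 17.6% and 32.8%). In each film group the 2 that rose were SGK1 and TSC22D3. SGK1's film level was behind the choice of the set, so its part in these counts is not independent of that choice. All of these comparisons share the untreated libraries.

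**Figure D3:**
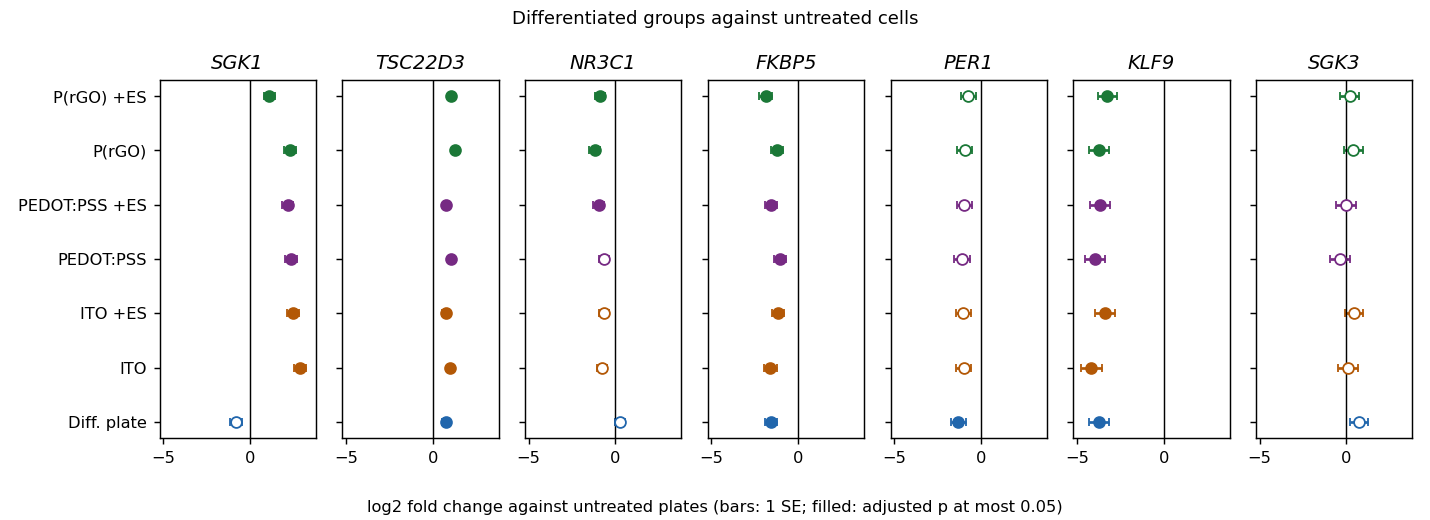
Log2 fold change of 7 tested members in each differentiated group against untreated plates, with bars of 1 standard error; filled points had an edgeR adjusted p of at most 0.05. SGK1 runs from -0.79 on differentiated plates to 2.89 on ITO, whereas KLF9 lies between -4.17 and -3.26 in every group.

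As a description over 16 libraries that share groups, the level of SGK1 ran against that of NR3C1 (Pearson r = -0.77) and with that of TSC22D3 (r = 0.56). PER1 was at -0.04, FKBP5 at -0.21, SGK3 at -0.38 and KLF9 at -0.45. Within the 14 differentiated libraries NR3C1 was at -0.74, SGK3 at -0.54, KLF9 at -0.13, FKBP5 at 0.24, PER1 at 0.39 and TSC22D3 at 0.40.

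Other glucocorticoid targets, 33 genes outside the set of which 26 were tested, fell more often than they rose on differentiated plates. Against untreated plates 2 rose and 6 fell, where 13.8% of all genes rose and 15.8% fell. The median log2 fold change of the 26 was -0.39 against -0.01 over all genes. SNAI2, a transcription factor of mesenchymal cells, had 0.814 and 0.699 CPM on differentiated plates against 7.46 and 4.48 CPM in untreated cells (log2 fold change -2.97, SE 0.55, edgeR adjusted p = 0.0018). DDIT4, an inhibitor of mTORC1, had 10.6 and 12.1 CPM against 72.9 and 33.2 CPM (-2.23, SE 0.47, adjusted p = 0.0037). CEBPD, a transcription factor, fell as well, with 1 read in the 2 differentiated plates together against 63 reads in the 2 untreated libraries. RGS2, a regulator of G protein signalling, was one of the 2 that rose (0.88, SE 0.26, adjusted p = 0.023). Fibroblast markers fell in the same comparison, 8 of 10 tested, and their part in the list's values was not tested.

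On unstimulated films the same list showed few calls against differentiated plates. P(rGO) had 2 higher, ITO had 1 and PEDOT:PSS had 0, with 4.63%, 4.23% and 1.48% of all genes called. RGS2 had 43.7 and 54.4 CPM on P(rGO), 36.3 and 43.2 CPM on PEDOT:PSS and 47.5 and 37.2 CPM on ITO, against 17.0 and 20.97 CPM on differentiated plates. It rose on P(rGO) by 1.37 (SE 0.26, edgeR adjusted p = 0.0081) and on ITO by 1.16 (adjusted p = 0.021), and was 1.07 on PEDOT:PSS (adjusted p = 0.057). With stimulation RGS2 had 27.8 and 25.6 CPM on P(rGO), below both unstimulated P(rGO) libraries (-0.88, SE 0.25, adjusted p = 0.73). The medians of the list were 0.07, 0.11 and -0.05 on the 3 films, against -0.02 over all genes on each of them.

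Genes around the kinase and the receptor were counted in the same way. Of 27 SGK activators and substrates, 4 rose and 3 fell on differentiated plates against untreated plates, where 13.8% of all genes rose and 15.8% fell, so the list's counts are near those over all genes. PDPK1, the kinase that activates SGK1, rose by 0.75 (SE 0.15), NDRG2, a substrate family member, by 0.73 (SE 0.15) and FOXO3 by 0.77 (SE 0.18), whereas FOXO1 fell by 1.23 (SE 0.37), with edgeR adjusted p = 0.0033, 0.0033, 0.0061 and 0.023. On unstimulated films the only call in that list was NEDD4, a ubiquitin ligase related to NEDD4L. It had 17.4 ± 1.3 CPM on P(rGO) and 16.7 ± 0.58 CPM on PEDOT:PSS, against 9.76 ± 0.17 CPM on differentiated plates (SD, n = 2; edgeR adjusted p = 0.0098 and 0.029).

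Of 19 tested genes of steroid receptor machinery, 5 rose and 5 fell on differentiated plates against untreated plates. Over all genes 13.8% rose and 15.8% fell. The coactivators CREBBP, EP300 and NCOA1 rose by 0.85, 0.69 and 0.60 (edgeR adjusted p = 0.0030, 0.0063 and 0.0097). HSD11B2, which inactivates cortisol, fell by 1.81 (SE 0.41, adjusted p = 0.0061), at 0.760 and 0.649 CPM on differentiated plates against 2.13 and 2.84 CPM in untreated cells. None of the 19 passed on any of the 3 unstimulated films against differentiated plates. The smallest p on each film was that of ABCB1, a drug efflux pump, on P(rGO) (0.78, adjusted p = 0.065), PEDOT:PSS (0.53, 0.31) and ITO (0.63, 0.15).

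Of 19 tested clock genes around PER1, 1 rose and 8 fell on differentiated plates against untreated plates, and 10 did not pass. Over all genes 13.8% rose and 15.8% fell. The median of the list was -0.55 against -0.01 over all genes. TEF, DBP and HLF, the PAR bZIP factors driven by the clock, were at -2.63 (SE 0.47), -2.71 (SE 0.53) and -2.89 (SE 0.63), with edgeR adjusted p = 0.0014, 0.0024 and 0.0046, and CIART, a clock repressor, was at -1.41 (adjusted p = 0.0081). HLF had 2.12 and 0.949 CPM on differentiated plates against 4.73 and 18.0 CPM in untreated cells, and TEF 2.55 and 2.35 CPM against 6.15 and 24.3 CPM. Untreated replicate 2 was above replicate 1 in 13 of the 19 clock genes, where 48.2% of all tested genes were. Without untreated replicate 2, 3 clock genes rose and 6 fell, and without differentiated plate replicate 1 or 2 the falls numbered 4 and 3. On unstimulated films the only clock call against differentiated plates was NPAS2, a partner of BMAL1, which rose on ITO by 2.30 (SE 0.43, adjusted p = 0.0086), at 3.32 and 6.99 CPM against 0.977 and 1.10 CPM on differentiated plates. On stimulated films it was BHLHE40, a clock repressor, on P(rGO) (3.62, SE 0.81, adjusted p = 0.040), with 9.51 and 1.44 CPM on stimulated P(rGO), against 0.271 and 0.599 CPM on differentiated plates.

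Relatives of KLF9, FKBP5 and TSC22D3 were counted as well. Among 10 tested Krüppel-like factors 3 rose on differentiated plates against untreated plates and none fell, where 13.8% of all genes rose and 15.8% fell. KLF11 (1.17, SE 0.13, edgeR adjusted p = 6.6e-05), KLF12 (0.50, adjusted p = 0.027) and KLF7 (0.45, adjusted p = 0.039) were the 3. KLF10, a factor induced by TGF-beta, rose on all 3 films against differentiated plates, by 0.89 on P(rGO), 0.82 on the PEDOT:PSS film and 0.77 on ITO (SE 0.13 each; adjusted p = 0.0023, 0.0075 and 0.0049). Of 15 tested relatives of TSC22D3 and FKBP5, 5 fell on differentiated plates, where 15.8% of all genes fell. FKBP14, FKBP7, FKBP10 and FKBP4 were among the 5 (-1.09 to -0.61), and none of the 15 passed on unstimulated films.

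Osmotic and cell volume genes were listed because SGK1 responds to cell volume. On differentiated plates 4 of 13 fell against untreated plates, where 15.8% of all genes fell. Among the 4 were STK39 (-1.04, SE 0.17, edgeR adjusted p = 0.00096) and SLC6A6 (-0.90, adjusted p = 0.0029), a kinase and a taurine carrier of the volume response. On unstimulated films none rose. AQP1, a water channel, had 2.75 and 2.43 CPM on P(rGO) and 3.32 and 3.79 CPM on ITO, against 9.39 and 7.49 CPM on differentiated plates, and fell on both (-1.70, adjusted p = 0.0088, and -1.25, adjusted p = 0.039).

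**Figure D4:**
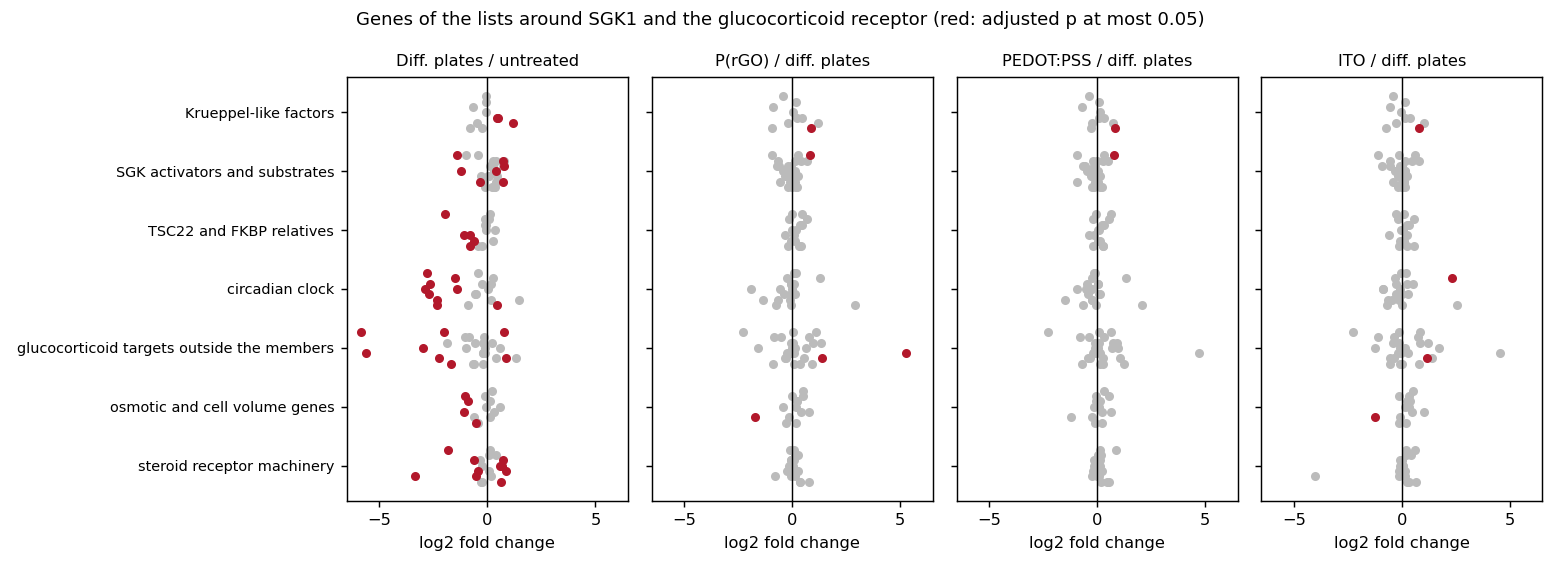
Log2 fold changes of the tested genes of 7 lists, 1 point per gene, on differentiated plates against untreated plates (left) and on each unstimulated film against differentiated plates; red points had an edgeR adjusted p of at most 0.05 and vertical offsets only separate points. The left panel holds 8 falls in the clock list, and the film panels hold few called genes.

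Of 127 tested genes in all 7 lists together, the unstimulated film calls were 5 on P(rGO), 2 on the PEDOT:PSS film and 4 on ITO. Over all genes 4.63%, 1.48% and 4.23% were called. The list calls changed with the libraries in the fit. Without differentiated plate replicate 1 none of them was left, and 132 genes in all were called on ITO in place of 764. With only the groups compared in the fit, the differentiated against untreated plate calls of the lists came to 0, other than 3 falls among the glucocorticoid targets. In a fit without the untreated libraries, added after earlier results were known, the film calls were 15, 8 and 16, with 1722 genes called on ITO. Within the glucocorticoid list that fit gave 2 higher and 2 lower on P(rGO) and 1 of each on the other two films.

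For stimulation, averaged over the 3 films, no gene of the 7 lists passed. In the glucocorticoid list 21 of 26 values were above 0, where 50.4% of all genes were. The median of the list was 0.18 against 0.00 over all genes. All 26 values come from the same libraries, and whether the list moved as a set was not tested. MT2A, a metal-binding metallothionein, had the smallest p there (2.07, SE 0.51, edgeR unadjusted p = 0.0011, adjusted p = 0.64). It was 33.6 and 7.33 CPM on stimulated P(rGO), against 5.84 and 2.14 CPM on unstimulated P(rGO), 11.9 and 5.45 CPM on stimulated PEDOT:PSS, against 2.81 and 3.19 CPM without, and 34.4 and 3.15 CPM on stimulated ITO, against 4.68 and 2.74 CPM without. Replicate 1 was the higher library on each stimulated film. Near-identical metallothionein copies share reads with MT2A, which makes its counts uncertain.

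The 5 genes whose levels were most like those of SGK1 over the 16 libraries were PRSS12 (Pearson r = 0.98), PLXNA2 (0.97), INSYN2B (0.97), KITLG (0.96) and PTPRE (0.95), compared over 11467 genes of which 2.71% exceeded 0.8. PRSS12, a secreted serine protease of neurons, had 383 ± 52, 505 ± 39 and 606 ± 190 CPM on stimulated P(rGO), PEDOT:PSS and ITO and 660 ± 9.4, 566 ± 3.7 and 731 ± 3.6 CPM on the unstimulated films. Plates had 179 ± 35 CPM when differentiated and 231 ± 18 CPM when untreated (SD, n = 2). KITLG, the ligand of the KIT receptor, had 33.2 ± 6.8 CPM on stimulated P(rGO) and 50.4 ± 3.4 CPM on unstimulated P(rGO), against 19.99 ± 5.5 CPM on differentiated and 19.8 ± 0.57 CPM on untreated plates. PLXNA2, a semaphorin receptor of growing axons, and PTPRE, a tyrosine phosphatase, were likewise lowest on plates, at 226 and 10.5 CPM when differentiated. Since the 5 genes were picked by their correlation with SGK1, this likeness is built in. The fifth place was close, at 0.954 against 0.953 for the next gene, and 2 of the 5 were kept by Spearman correlation and 2 without the untreated libraries.

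**Figure D5:**
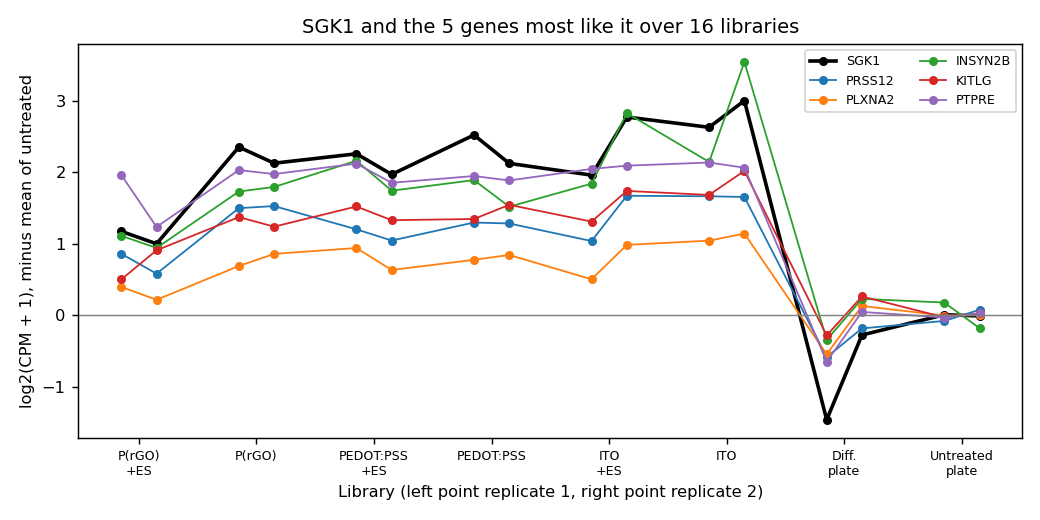
Level of SGK1 (thick line) and of the 5 genes most like it, as log2(CPM + 1) minus the mean of the 2 untreated libraries, in each library by group; lines only join points of a gene. SGK1 and the 5 genes are above 0 in all 12 film libraries and both stimulated P(rGO) libraries lie below both unstimulated ones for each of them. The 5 genes were picked for their correlation with SGK1 over these same libraries, so a shared course is built in.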

How the data were processed

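Per the submitters' processing notes, reads were handled with STAR and HTSeq on GRCh38.p13 (hg38), and the deposited values are raw read counts per gene in 16 columns, 1 per library. The kit marks strand per the labels' protocols, but no source used here names the strand setting of the counter, so overlapping and antisense genes are uncertain. Of 69222 gene rows 32387 were at 0 everywhere, and symbols matched 62639 IDs. Reads without a gene filled 5 further rows; those outside any gene came to 5.58% to 10.0% per library and were left out of library sizes.

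From these counts, R 4.3.3 with edgeR 4.0.16 kept 18081 genes by its default filter, scaled libraries by the trimmed mean of M values and fitted 1 mean per group over 16 libraries by quasi-likelihood with robust spread (8 residual degrees of freedom). A call is a p of 0.05 or less after Benjamini-Hochberg adjustment over all tested genes. CPM use scaled sizes. Members and lists were chosen with earlier results of these data known. The text names all 8 members, up to 4 called genes per list and comparison by p (or the best one where none passed), and the 5 genes with the highest Pearson correlation with SGK1 of log2 CPM (prior count 2) having at least 5 CPM in a group. Exon lengths and overlaps came from a GRCh38 annotation, promoters from RefSeq. Alternatives were other scaling, no filter, a replicate block, DESeq2 1.42.0, only the groups compared, leaving out each library, and a fit without untreated libraries, added after seeing the data. The fit was tested on simulated data. One gene that the naming rule picks is not reported here, though list counts include it.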

Additional observations from a re-analysis of the deposited data

How the results depend on the processing

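Relative log expression scaling kept every count of called genes within 1.5 times, and moved the median of all genes by at most 0.0186. Replicate numbers recur in all groups. In 16 of 28 pairs of groups, same-numbered libraries deviated together by a correlation over 0.1 (range -0.19 to 0.29). Between film groups every correlation was positive, at 0.066 to 0.29, whereas pairs with a plate group ran from -0.19 to 0.17. The numbers are thus not shown to pair libraries over all groups, but they may pair film libraries, which the main fit treats as unpaired. The correlation was 0.28, 0.14 and 0.19 between stimulated and unstimulated P(rGO), PEDOT:PSS and ITO. A prefix in the file's column names differs between replicates 1 and 2 in every group, and its meaning is not given. With the replicate block, 3 of 7 members passed on differentiated against untreated plates in place of 4, since PER1 had an adjusted p of 0.053, and list genes called against differentiated plates were 8 on P(rGO), 7 on ITO, 5 on stimulated ITO and 2 on stimulated PEDOT:PSS. Other counts of list genes called, in the order P(rGO), PEDOT:PSS, ITO, then the same films stimulated, were 18, 10, 16, 13, 10 and 16 without the low-count filter, 13, 5, 9, 7, 6 and 7 with DESeq2, and 15, 8, 16, 7, 7 and 9 without the untreated libraries. With only the groups compared they were 11 on P(rGO), 7 on ITO, 5 on stimulated PEDOT:PSS and 1 on stimulated ITO. The share of all genes called in each refit is not given in this section, so larger counts need not be particular to the lists. Leaving out 1 library gave 0 to 15, 0 to 8, 0 to 16, 0 to 7, 0 to 7 and 0 to 9.

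For members against untreated cells, the fit of only the groups compared left 1 on differentiated plates, 3 on P(rGO), 2 on PEDOT:PSS, 2 on ITO, 3 on stimulated P(rGO), 2 on stimulated PEDOT:PSS and 1 on stimulated ITO. Leaving out 1 library gave 2 to 4 on differentiated plates, 3 to 5 on P(rGO), 3 to 5 on PEDOT:PSS, 4 to 6 on ITO, 3 to 5 on stimulated P(rGO), 4 to 6 on stimulated PEDOT:PSS and 2 to 5 on stimulated ITO. Without the low-count filter 1 member, SGK1, passed for stimulation on P(rGO) and for its mean over films. It also passed on stimulated ITO and stimulated PEDOT:PSS against stimulated P(rGO). DESeq2 called 1 for stimulated ITO against stimulated P(rGO). For these member counts, too, the share of all genes called in each refit is not given in this section. The log2 fold change of PER1 on differentiated against untreated plates turned to 0.062 without untreated replicate 2, and was -2.011 without untreated replicate 1. Of 2369 refitted values that had not passed, 93 changed sign without passing. Of the 5 genes most like SGK1, 2 stayed by Spearman correlation and 2 without the untreated libraries. Apart from the alternatives whose construction removes samples or filters, the cause of these shifts was not tested. With 2 libraries per group, the median standard error of a difference between 2 groups was 0.25 to 0.26. Low counts limit SGK3, at 4 to 14 reads per library, and ZBTB16.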
